A study of Mus musculus with 12 samples.

Results

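The genes described here encode the nuclear subunits of the mitochondrial respiratory chain and of ATP synthase, with the assembly factors of complex I. They were taken by name from the table of 25078 genes: the Nduf genes for complex I, Sdha to Sdhd for complex II, the Uqcr genes for complex III, the Cox4 to Cox8 genes for complex IV, and the Atp5 genes for complex V, with the Ndufaf genes set apart as assembly factors. Of 95 genes so named, 83 had at least 10 counts in every library, and these 83 are followed below. They comprised 36 subunits of complex I, 8 assembly factors of complex I, 4 subunits of complex II, 8 of complex III, 11 of complex IV, and 16 of complex V. All 83 also passed the filter on low counts used for the tests, which kept 11959 genes in CD4+ T cells and 12002 in CD8+ T cells.

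The study transplanted lethally irradiated BALB/c mice with T cell-depleted marrow of WT C57BL/6 mice plus donor T cells of the same strain that were WT, lacked STAT3 (STAT3-/-), or lacked both STAT3 and PD-1 (STAT3-/-PD-1-/-), and asked how loss of STAT3, and of PD-1 on top of it, changes T cells that infiltrate the tissues attacked in graft-versus-host disease. STAT3-/- donors carried floxed Stat3 deleted by Cre under the Cd4 promoter, so that Stat3 is lost in both T cell subsets, and STAT3-/-PD-1-/- donors came from crossing them with PD-1-/- mice. All libraries came from donor CD4+ or CD8+ T cells sorted from the liver on day 6 after HCT, with 2 libraries for each of 6 groups. CD4+ and CD8+ T cells came from the same livers, and each library held lymphocytes of 3 recipients. The age of the mice was not given in the sources used here, and no group lost PD-1 alone, so that every comparison for PD-1 is made on a STAT3-/- background. The libraries held 21676125 to 24551477 counts, of which the 83 genes together took 0.661% in STAT3-/- CD4+ replicate 2, the lowest, and 1.12% in STAT3-/-PD-1-/- CD8+ replicate 2, the highest.

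Complex I takes electrons from NADH and complex II from succinate, and both pass them through ubiquinone to complex III. Cytochrome c carries them on to complex IV, which reduces oxygen, and complex V uses the proton gradient built by complexes I, III, and IV to make ATP. Activated T cells draw on this chain for ATP and for the NAD+ and aspartate that dividing cells need. The core of each complex except complex II also holds subunits encoded by mitochondrial DNA, and none of the 26 mitochondrial names searched for was in the table, so that mitochondrially encoded subunits were not analysed here.

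The targeted genes were examined first. Levels are CPM, counts scaled to library size with the trimmed mean of M values (TMM) within each subset. Stat3 was at 362 and 466 CPM in the WT CD4+ libraries, 138 and 164 CPM in STAT3-/- and 157 and 222 CPM in STAT3-/-PD-1-/-. In CD8+ T cells Stat3 was at 396 and 387 CPM in WT, 148 and 136 CPM in STAT3-/-, and 154 and 238 CPM in STAT3-/-PD-1-/-. Each STAT3-deficient library lay under both WT libraries of its subset, and reads were still counted on Stat3 in all of them. Pdcd1, which encodes PD-1, was at 242 and 235 CPM in WT CD4+, 257 and 323 CPM in STAT3-/- CD4+, and 55.1 and 26.3 CPM in STAT3-/-PD-1-/- CD4+ T cells. In CD8+ T cells Pdcd1 was at 375 and 310 CPM in WT, 422 and 458 CPM in STAT3-/-, and 94.0 and 66.5 CPM in STAT3-/-PD-1-/-. Cd4 was at 1256 to 1888 CPM in the CD4+ libraries and at 0.355 to 2.78 CPM in the CD8+ libraries, and Cd8a was at 597 to 1349 CPM in the CD8+ libraries and at 0.417 to 5.70 CPM in the CD4+ libraries. The sorted subsets thus carried the coreceptors of their labels.

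The levels of the subunits differed widely. Per exon length (RPKM), Atp5b (the catalytic beta subunit of complex V) was the most abundant, at a mean of 480 RPKM over the 6 CD4+ libraries and 599.8 RPKM over the 6 CD8+ libraries. Atp5a1 (the alpha subunit of complex V) was at 412 RPKM in CD4+ T cells, Cox4i1 (a nuclear subunit of complex IV) at 402 RPKM, and Atp5g3 (a gene for the membrane ring of complex V) at 324 RPKM. Most genes counted with complex I lay lower, from 171 RPKM for Ndufa4, which is placed there by its name only since its product is known as a subunit of complex IV, down to 1.59 RPKM for Ndufab1 (the mitochondrial acyl carrier protein). The 8 assembly factors lay at 3.99 RPKM (Ndufaf6) to 16.3 RPKM (Ndufaf8) in CD4+ T cells, under all 4 subunits of complex II, of which Sdhc (a membrane anchor) was the lowest at 66.2 RPKM and Sdhb (the iron-sulfur subunit) the highest at 133 RPKM. In complex III, Uqcrh (the hinge subunit) was at 264 RPKM, Uqcrc2 (a core subunit) at 113 RPKM, and Uqcrb at 33.7 RPKM.

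**Figure D1:**
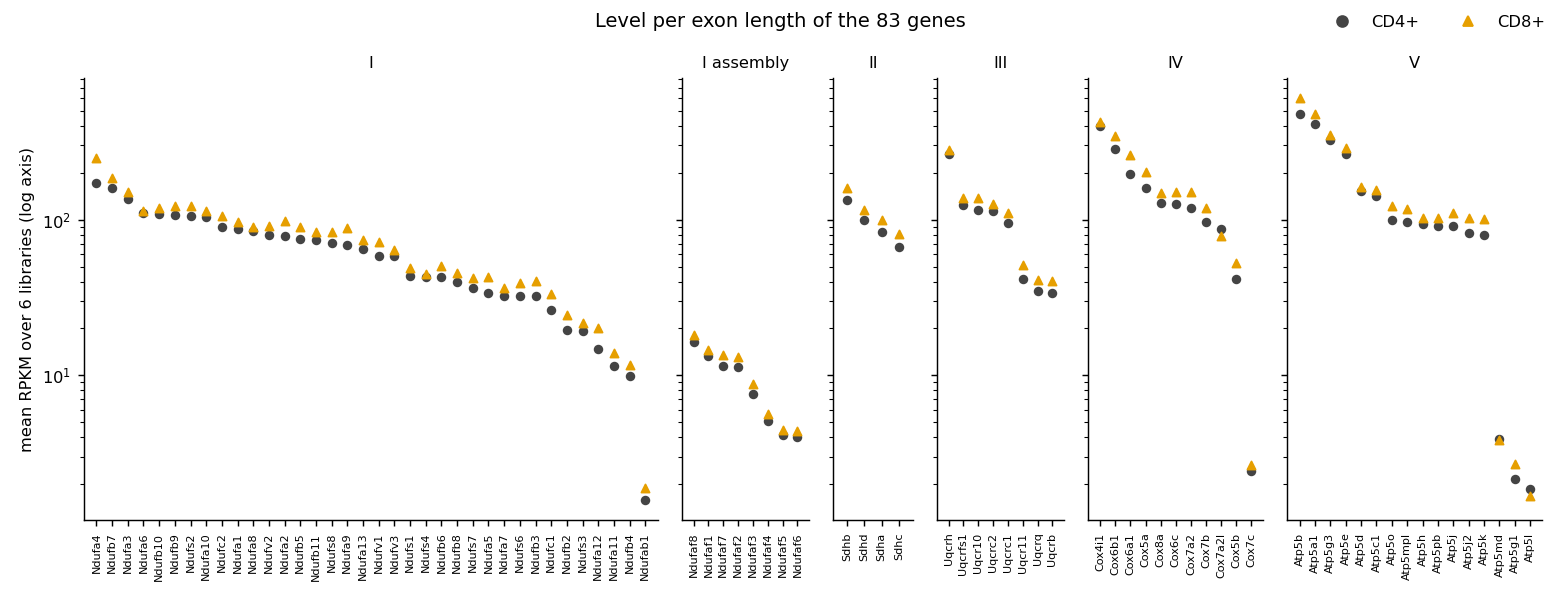
Mean RPKM over the 6 libraries of each subset (vertical axis, log scale) for each of the 83 genes (horizontal axis), by complex; circles are CD4+ and triangles CD8+ T cells, each subset scaled on its own. Atp5b is the highest at 480 RPKM in CD4+ T cells, the 8 assembly factors lie at 3.99 to 16.3 RPKM, and Ndufab1, Atp5l, Atp5g1, Cox7c, and Atp5md are the lowest, at 1.59 to 3.88 RPKM.

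Several subunits of complex IV exist as a pair of genes, one widely expressed and one best known from heart, skeletal muscle, lung, or testis. In these T cells the widely expressed gene carried nearly all of the counts. Cox4i1 had 402 RPKM in CD4+ T cells, whereas Cox4i2 (best known from lung) had 0 to 2 counts per library. Cox6a1 was at 197 RPKM against 0 to 5 counts for Cox6a2, a muscle form, and Cox7a2 was at 119 RPKM against 0 to 10 counts for Cox7a1, a muscle form. Cox6b1 was at 286 RPKM against 6 to 19 counts for Cox6b2, best known from testis. Cox7b2, Cox8b, and Cox8c had 0 counts in all 12 libraries, which allows up to 3 counts in a library, or 0.138 CPM in the shallowest one. Among the 3 genes for the ring subunit of complex V, Atp5g3 had 324 RPKM, Atp5g1 had 2.15 RPKM, and Atp5g2 had 7 to 18 counts per library.

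The other named genes under 10 counts were Ndufa4l2 and Ndufb4c (0 to 1 count each), Ndufa11b (0 to 10 counts), and Ndufs5, which was listed at 0 in all 12 libraries. Just inside the limit lay Atp5l (10 to 41 counts), Cox7c (14 to 43), Atp5g1 (23 to 67), Atp5md (24 to 51), and Ndufab1 (62 to 118). Ndufs5, Cox7c, and Atp5l are subunits used by every respiring cell, so that these low values are given as listed and not as levels of transcript. Reads of 51 bases from these genes can match copies elsewhere. Of all 51-base windows in GENCODE M21 transcripts of Atp5l, 68.4% also occurred in transcripts of other genes, against 22.9% for Cox7c, 10% for Atp5g1, 9.44% for Ndufab1, and 8.1% for Atp5md. The share was 21.5% for Ndufs5, which was listed at 0 throughout, so that it does not limit how far a count can be off. In all, 22 of the 83 genes shared at least 5% of their windows and 61 did not, and counts of these 22 are uncertain.

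The comparison of STAT3-/- with WT asks what loss of STAT3 in donor T cells changed. In CD4+ T cells no respiratory chain gene passed the test (quasi-likelihood test of edgeR, Benjamini-Hochberg adjusted p under 0.05 over all genes tested). At an unadjusted p under 0.05 there were also 0 of 83 (5.28% of all genes passed as higher and 5.25% as lower), and DESeq2 called 0. The deleted gene Stat3 was not called by edgeR either, at 362 and 466 CPM in WT and 138 and 164 CPM in STAT3-/- CD4+ T cells. A lack of calls in this comparison thus does not show a lack of change. Across all genes 0.151% were called higher and 0.184% lower by edgeR, 1.08% and 1.45% with the replicate number as a block in the fit, and 0.806% and 1.30% by DESeq2. The fold changes centered on 0, with a median log2 fold change of -0.02 over the 83 genes, 39 above 0 and 44 below, against 0.01 over all genes tested. The medians by complex ran from -0.05 for complex III to 0.01 for complex I. The largest differences were those of Ndufa4, with a log2 fold change of 0.53 ± 0.24 (SE, adjusted p = 0.522), and Atp5g1, with -0.51 ± 0.35 (adjusted p = 0.713), and neither passed.

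The 2 STAT3-/- CD4+ libraries lay apart from each other. On the log2 CPM scale relative to the mean of the WT libraries, the median of the 83 genes was 0.16 in STAT3-/- replicate 1 and -0.17 in replicate 2, with 0.10 and -0.10 in the 2 WT libraries. It was widest in complex III, at 0.11 and -0.28, and narrowest in complex II, at 0.10 and -0.10, where the WT libraries lay as far apart, at 0.11 and -0.11. Leaving out the first of them moved the median of the comparison to -0.17, and leaving out the second moved it to 0.16. Ndufa4 was at 117 and 71.3 CPM in the 2 STAT3-/- libraries against 73.3 and 57.5 CPM in WT, and Cox7a2 at 110 and 62.0 CPM against 86.5 and 68.3 CPM. Libraries of both groups overlapped for most genes: 4 of 83 genes were higher in both STAT3-/- libraries than in both WT libraries (19.2% of all genes tested were) and 14 were lower in both (18.9% of all genes tested).

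**Figure D2:**
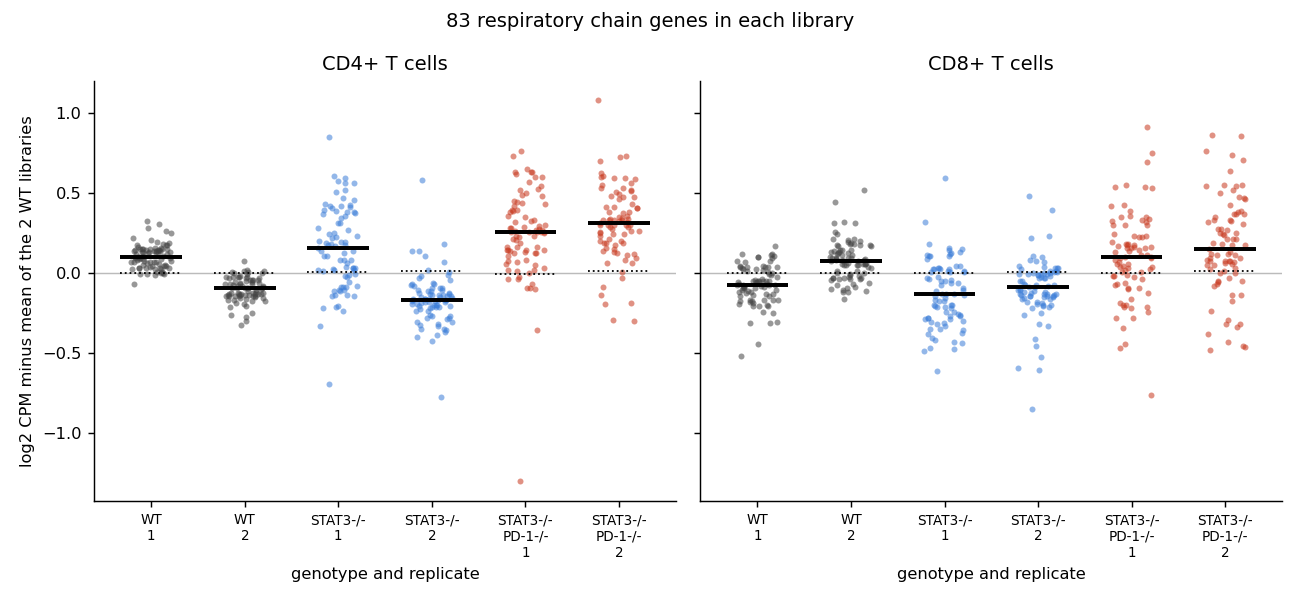
Log2 CPM of each of the 83 genes minus its mean in the 2 WT libraries of the same subset (vertical axis), in each library (horizontal axis); points are genes, the thick line is the median of the 83 genes and the dotted line the median of all genes tested. The median is 0.26 and 0.31 in the 2 STAT3-/-PD-1-/- CD4+ libraries, and 0.16 and -0.17 in the 2 STAT3-/- CD4+ libraries.

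When STAT3-/-PD-1-/- was compared with WT in CD4+ T cells, the median fold change lay above 0 in every complex, but few single genes passed. Atp5b and Ndufa12 (an accessory subunit of complex I) rose, 2 of 83 genes, when 7.21% of all genes were called higher, and 0 of 83 fell, when 5.65% of all genes were called lower. The share of called genes was thus no higher than that of all genes. The median log2 fold change was 0.27 over the 83 genes and -0.01 over all genes tested, and 77 of 83 genes were above 0. Dropping WT replicate 2 lowered it to 0.16, and dropping WT replicate 1 raised it to 0.37. The interquartile range was 0.15 to 0.44 over the 83 genes and -0.31 to 0.33 over all genes. Of the 83 genes, 59 were higher in both STAT3-/-PD-1-/- libraries than in both WT libraries, against 31% of all genes tested, and 2 were lower in both, against 28%. The library medians were 0.26 and 0.31 in STAT3-/-PD-1-/- and 0.10 and -0.10 in WT, so that the groups did not overlap and the difference exceeded the pooled SD between replicates of 0.10. Without any 1 of these 4 libraries, 0 of the 83 genes were called, when 0.188% to 2.67% of all genes were called higher. With the replicate number as a block in the fit, 12 rose, when 13.8% of all genes were called higher.

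Atp5b was at 825 and 720 CPM in WT CD4+ T cells, 816 and 712 CPM in STAT3-/-, and 1089 and 1249 CPM in STAT3-/-PD-1-/-. Both STAT3-/-PD-1-/- libraries lay above all 4 others. Against WT this was a log2 fold change of 0.60 ± 0.15 (SE, adjusted p = 0.0404 by edgeR's quasi-likelihood test) and 0.61 ± 0.15 (adjusted p = 0.0416) against STAT3-/-. Atp5b lies on the plus strand of chr10:128083307-128090388 (mm10), and 0.804% of its windows were shared with other genes. Ndufa12 (chr10:94199035-94221438, plus strand) was at 13.0 and 12.5 CPM in WT, 13.03 and 11.97 CPM in STAT3-/-, and 19.8 and 21.2 CPM in STAT3-/-PD-1-/- CD4+ libraries. The groups again did not overlap, with a log2 fold change of 0.68 ± 0.18 (adjusted p = 0.0458) against WT and 0.72 ± 0.18 (adjusted p = 0.0449) against STAT3-/-. Both calls were lost when all genes with at least 1 count were tested (adjusted p = 0.0577 and 0.0521 by edgeR's quasi-likelihood test). The call against STAT3-/- was also lost when only the 4 libraries compared were fitted (adjusted p = 0.069), and when any 1 of the 6 CD4+ libraries was left out. Of the windows of Ndufa12, 26% were shared, all with the predicted gene Gm15920.

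By complex, the median log2 fold change in STAT3-/-PD-1-/- CD4+ T cells against WT was 0.27 in complex I, 0.30 in the assembly factors, 0.38 in complex II, 0.23 in complex III, 0.27 in complex IV, and 0.30 in complex V. In complex II, all 4 genes were higher in both libraries than in both WT libraries, against 31% of all genes tested. Sdha (the flavoprotein that oxidizes succinate) was at 0.52 ± 0.15 (adjusted p = 0.0602 by edgeR's quasi-likelihood test) and Sdhd (a membrane anchor) at 0.46 ± 0.19 (adjusted p = 0.158). Among the assembly factors, 7 of 8 were above WT, led by Ndufaf2 at 0.74 ± 0.22 (adjusted p = 0.0663). In complex III, Uqcrc1 (a core subunit) had a log2 fold change of 0.42 ± 0.14 (adjusted p = 0.0978), and in complex V, Atp5a1 had 0.35 ± 0.14 (adjusted p = 0.145) and Atp5g3 had 0.46 ± 0.15 (adjusted p = 0.0865). With the replicate number as a block in the fit, Sdha, Ndufaf2, Uqcrc1, and Atp5g3 were called, when 13.8% of all genes were called higher. Below WT lay 6 genes, none of which passed. They were led by Atp5l, at -0.79 ± 0.50 with few counts, and Cox7a2l (a relative of the Cox7a subunits), at -0.33 ± 0.17 (adjusted p = 0.240).

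Against STAT3-/- CD4+ T cells, a comparison that shares its STAT3-/-PD-1-/- libraries with the one above, 3 of 83 genes rose (6.05% of all genes were called higher) and 0 fell (5.03% of all genes were called lower). The third gene beside Atp5b and Ndufa12 was Atp5g3, at 196 and 183 CPM in STAT3-/- and 270 and 327 CPM in STAT3-/-PD-1-/- CD4+ T cells, with a log2 fold change of 0.66 ± 0.15 (adjusted p = 0.0359 by edgeR's quasi-likelihood test). The median over the 83 genes was 0.25, with 72 above 0, and it ran from 0.12 to 0.44 when STAT3-/- replicate 2 or 1 was dropped. Of the 83 genes, 53 genes were higher in both libraries (29.6% of all genes tested) and 1 was lower in both (29.3%). Ndufv1 (which binds the NADH that feeds complex I) had a log2 fold change of 0.53 ± 0.14 (adjusted p = 0.0513), at 76.5 and 80.7 CPM in STAT3-/- and 108 and 120 CPM in STAT3-/-PD-1-/-. The size of the shift differed between replicate numbers. Between libraries of number 1, the median difference was 0.10, and between those of number 2, it was 0.46; against WT the same differences were 0.15 and 0.40. Without STAT3-/- replicate 2 or either STAT3-/-PD-1-/- library, 0 of the 83 genes were called, when 0% to 2.19% of all genes were called higher, and without WT replicate 2 there was 1, when 5.13% were. Without STAT3-/- replicate 1, only Atp5b of the 3 genes above was called, at log2 fold changes of 0.71 (Atp5b), 0.78 (Ndufa12), and 0.70 (Atp5g3). With the replicate number as a block, 13 rose, when 13.2% of all genes were called higher.

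**Figure D3:**
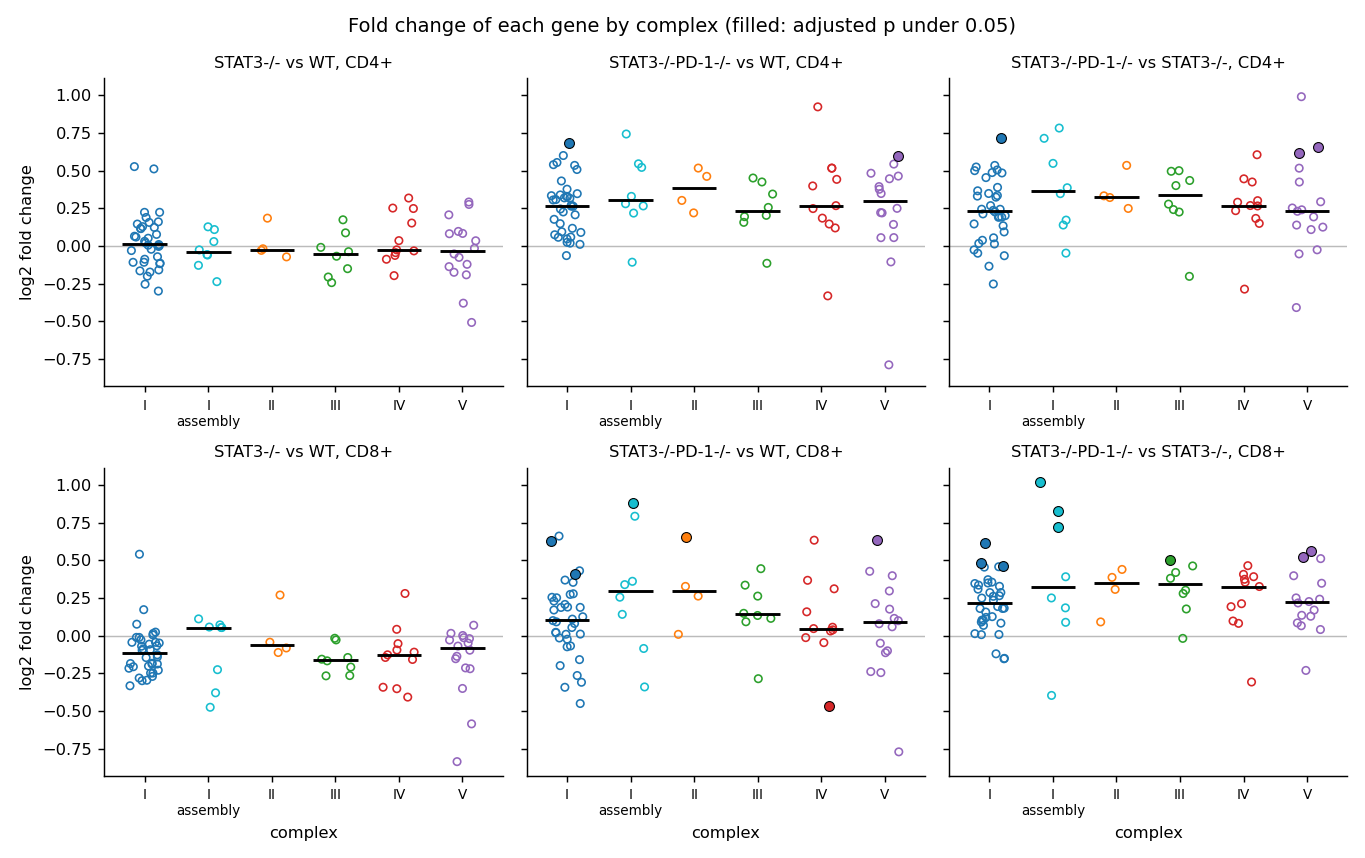
Log2 fold change (vertical axis) of each gene by complex (horizontal axis) for the 3 genotype comparisons in CD4+ (upper row) and CD8+ T cells (lower row); filled points passed an adjusted p under 0.05 and lines are medians. Most points of STAT3-/-PD-1-/- against STAT3-/- lie above 0 in both subsets (72 and 76 of 83), whereas filled points number 3 and 9.

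In CD8+ T cells, STAT3-/- libraries lay slightly under WT. No respiratory chain gene passed by edgeR's quasi-likelihood test (0 of 83, with 0.0167% of all genes called higher and 0.0417% lower), and DESeq2 also called 0, with 0.819% and 0.861%. Stat3 was again not called by edgeR, so that here too a lack of calls does not show a lack of change. At an unadjusted p under 0.05 there were 3 genes, all lower, a share of 3.61% against 4.95% of all genes, namely Cox7a2 at -0.41 ± 0.17 (adjusted p = 0.437), Ndufaf4 at -0.38 ± 0.15 (adjusted p = 0.426), and Ndufaf8 at -0.48 ± 0.20 (adjusted p = 0.441). The median log2 fold change was -0.11 over the 83 genes, 66 of which were below 0, against -0.01 over all genes tested. It ran from -0.19 to -0.064 when WT replicate 1 or 2 was dropped. The library medians were -0.13 and -0.09 in STAT3-/- and -0.08 and 0.08 in WT, so that the groups lay close together, at a pooled SD between replicates of 0.078. Complex III had the lowest median, -0.16, with all 8 genes below 0 and none called. Sdha had the highest estimate in complex II, 0.27 ± 0.13 (adjusted p = 0.527), and 5 of the 8 assembly factors were above 0. In both STAT3-/- libraries 26 genes were lower than in both WT libraries (21.1% of all genes tested) and 6 were higher (22.3%).

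When STAT3-/-PD-1-/- was compared with WT in CD8+ T cells, single genes of complexes I, II, and V and 1 assembly factor rose. Of the genes placed in complex IV by their names, 1 fell. The 5 that rose were Ndufa12, Ndufb8 (an accessory subunit of complex I), Sdha, Atp5b, and Ndufaf2, when 9.01% of all genes were called higher. The 1 that fell was Cox7a2l, when 8.21% of all genes were called lower. The median over the 83 genes was 0.11, with 61 above 0, and the library medians were 0.10 and 0.15 in STAT3-/-PD-1-/- against -0.08 and 0.08 in WT, at a pooled SD of 0.078. Leaving out WT replicate 1 lowered the median to 0.028 and leaving out WT replicate 2 raised it to 0.20, and between libraries of the same number it was 0.16 (number 1) and 0.075 (number 2, with 49 of 83 genes higher). Of the 83 genes, 36 were higher in both libraries (30.8% of all genes tested) and 8 were lower in both (28.9%). Without WT replicate 2 or either STAT3-/-PD-1-/- library, 0 of the 83 genes were called, when 0.285% to 2.84% of all genes were called higher, and without WT replicate 1 there were 2, when 4.28% were.

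Sdha (chr13:74322255-74350240, minus strand) was at 245 and 207 CPM in WT, 281 and 264 CPM in STAT3-/-, and 329 and 382 CPM in STAT3-/-PD-1-/- CD8+ libraries. The STAT3-/-PD-1-/- libraries were the 2 highest, with a log2 fold change of 0.65 ± 0.13 (adjusted p = 0.0185 by edgeR's quasi-likelihood test) against WT. Atp5b was at 1013 and 865 CPM in WT, 1041 and 929 CPM in STAT3-/-, and 1351 and 1562 CPM in STAT3-/-PD-1-/-. The groups did not overlap, at 0.63 ± 0.13 (adjusted p = 0.0183) against WT. Ndufa12 was at 16.5 and 17.7 CPM in WT, 18.6 and 19.8 CPM in STAT3-/-, and 24.8 and 27.9 CPM in STAT3-/-PD-1-/-, with a log2 fold change of 0.63 ± 0.15 (adjusted p = 0.0284) against WT. Ndufb8 rose by 0.41 ± 0.11 on the log2 scale (adjusted p = 0.0483), from 97.5 and 94.4 CPM in WT to 123 and 132 CPM. Its call was lost when only the 4 libraries compared were fitted (adjusted p = 0.0818 by edgeR's quasi-likelihood test), and when any 1 of the 6 CD8+ libraries was left out.

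Ndufaf2, which acts on a late intermediate of complex I, had the largest fold change of the genes that passed against WT. Its gene (chr13:108052589-108158625, minus strand) shared no windows. It was at 7.23 and 8.57 CPM in WT, 8.59 and 7.83 CPM in STAT3-/-, and 14.9 and 14.3 CPM in STAT3-/-PD-1-/- CD8+ T cells. Both STAT3-/-PD-1-/- libraries lay above all 4 others, with 0.88 ± 0.18 on the log2 scale (adjusted p = 0.0204 by edgeR's quasi-likelihood test) against WT and 0.83 ± 0.18 (adjusted p = 0.0264) against STAT3-/-. Cox7a2l (chr17:83501917-83514333, minus strand) moved the other way, at 98.9 and 106 CPM in WT, 89.4 and 94.6 CPM in STAT3-/-, and 74.0 and 74.6 CPM in STAT3-/-PD-1-/- libraries. The difference against WT was -0.47 ± 0.11 on the log2 scale (adjusted p = 0.0309). Cox7a2l was not called when only the 4 libraries compared were fitted (adjusted p = 0.0548 by edgeR's quasi-likelihood test), or when any 1 of the 6 CD8+ libraries was left out. Of the windows of Cox7a2l, 17.6% were shared, all with the predicted gene Gm6969, so that its counts are uncertain.

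Against STAT3-/- CD8+ T cells, 9 of 83 genes rose (8.76% of all genes were called higher) and 0 fell (8.05% of all genes were called lower). These were Ndufa5, Ndufb8, and Ndufc2 of complex I, Ndufaf2, Ndufaf4, and Ndufaf6 among the assembly factors, Uqcr11 of complex III, and Atp5b and Atp5g3 of complex V. DESeq2 called 1 gene lower, Cox7a2l, when it called 12.1% of all genes lower. The median over the 83 genes was 0.25, with 76 above 0, and the 2 library medians of each group were close together, at a pooled SD of 0.032. Of the 83 genes, 61 were higher in both libraries (32.5% of all genes tested) and 4 were lower in both (30.5%). Between libraries of number 1 the median difference was 0.20, and between those of number 2 it was 0.23. Without STAT3-/- replicate 2 or either STAT3-/-PD-1-/- library, 0 of the 83 genes were called, when 0.00814% to 3.45% of all genes were called higher. Without STAT3-/- replicate 1, 2 were, when 4.28% of all genes were called higher, and without WT replicate 1 or 2, 5 and 4 were, when up to 7.57% of all genes were.

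Of the 8 assembly factors, 3 rose in this comparison (8.76% of all genes were called higher). When only the 4 libraries compared were fitted, Ndufaf6, Ndufb8, Ndufc2, and Uqcr11 were not called (adjusted p = 0.0544, 0.0553, 0.0603, and 0.0713 by edgeR's quasi-likelihood test). Ndufaf6 (chr4:11051046-11076205, minus strand) was at 4.04 and 2.72 CPM in STAT3-/- and 6.43 and 7.25 CPM in STAT3-/-PD-1-/- CD8+ T cells, with a log2 fold change of 1.02 ± 0.26 (adjusted p = 0.0408 by edgeR's quasi-likelihood test). Ndufaf4 (chr4:24898083-24905001, plus strand) was at 16.5 and 14.8 CPM in STAT3-/- and 27.3 and 24.3 CPM in STAT3-/-PD-1-/-, at 0.72 ± 0.15 (adjusted p = 0.0235), with the WT libraries in between at 19.6 and 21.2 CPM. Ndufaf3, which acts with Ndufaf4 early in assembly, lay on the other side, at -0.40 ± 0.20 (adjusted p = 0.199). Among the subunits, Ndufa5 was at 20.2 and 22.7 CPM in STAT3-/- and 34.0 and 31.9 CPM in STAT3-/-PD-1-/-, at 0.62 ± 0.15 (adjusted p = 0.0316). Ndufc2, another accessory subunit, was at 61.1 and 57.8 CPM and 89.6 and 76.7 CPM, at 0.48 ± 0.13 (adjusted p = 0.0456), with the WT libraries at 68.8 and 77.3 CPM. In complex III, Uqcr11, a small subunit, rose by 0.50 ± 0.14 on the log2 scale (adjusted p = 0.0488), from 18.4 and 19.3 CPM to 26.1 and 27.4 CPM. Sdhd, at 0.44 ± 0.12 (adjusted p = 0.0506), and Atp5a1, at 0.40 ± 0.13 (adjusted p = 0.0694), did not pass. Sdhd was called by DESeq2, with upper-quartile scaling, with only genes of at least 10 counts in every library, and with the replicate number as a block. With that block 13 of the 83 genes rose, when 12.5% of all genes were called higher.

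**Figure D4:**
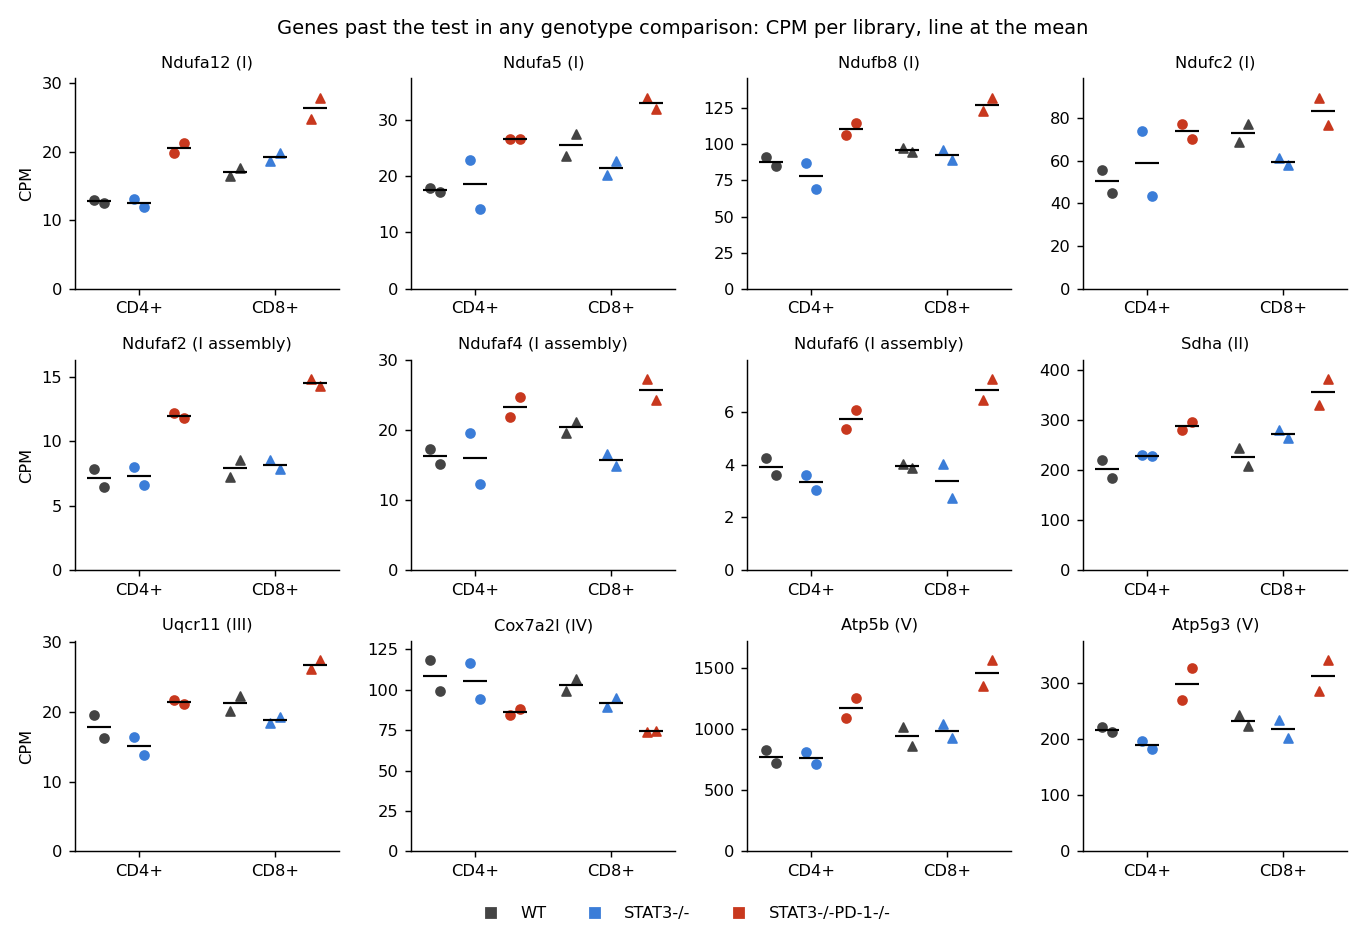
CPM (vertical axis, from 0) in each library of the 12 genes that passed an adjusted p under 0.05 in any genotype comparison; circles are CD4+ and triangles CD8+ libraries, with WT, STAT3-/-, and STAT3-/-PD-1-/- from left to right and a line at the mean of the 2 libraries. For 11 of the 12 genes the STAT3-/-PD-1-/- means are the highest in both subsets, and for Cox7a2l they are the lowest.

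The genotype effects were then compared between CD4+ and CD8+ T cells as an interaction in a fit of all 12 libraries, which tested 12334 genes. No respiratory chain gene passed for STAT3-/- against WT (0 of 83, with 0% of all genes called in either direction) or for STAT3-/-PD-1-/- against WT (0 of 83, with 0.00811% of all genes called in either direction). At an unadjusted p under 0.05 there were also 0 of 83 in each (1.85% and 4.43% of all genes). DESeq2 called 0 of the 83 in each, with 0% of all genes higher and 0.017% lower for STAT3-/-, and 0.271% and 0.345% for STAT3-/-PD-1-/-. The median interaction for STAT3-/-PD-1-/- against WT was -0.16, that is, a smaller fold change in CD8+ than in CD4+ T cells, with 61 of 83 genes below 0. Since both subsets came from the same livers, the fit was repeated with a term for each genotype and replicate number, a choice made after seeing the data. Again 0 of the 83 genes passed in either interaction. Of all genes, 0% were called for STAT3-/- against WT, and 0.308% higher and 0.373% lower for STAT3-/-PD-1-/- against WT. A difference between the subsets in these genotype effects against WT was thus not shown for any of the 83 genes. The effect of STAT3-/-PD-1-/- against STAT3-/- was not compared between the subsets.

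CD8+ and CD4+ T cells were compared with the genotypes averaged. Of the 83 genes, 15 were higher in CD8+ T cells (12.9% of all genes were called higher) and 0 were lower (12.6% of all genes were called lower), and 80 of 83 had a log2 fold change above 0, with a median of 0.21 against 0.00 over all genes tested. Ndufa4 differed most, at 0.54 ± 0.13 (adjusted p = 0.0105 by edgeR's quasi-likelihood test), followed by Ndufa12 at 0.45 ± 0.08 (adjusted p = 0.00206), and Cox6a1 at 0.38 ± 0.08 (adjusted p = 0.00703). Other genes that passed were Atp5k at 0.36 ± 0.10 and Cox5a and Cox5b, each at 0.33 ± 0.08. Sdhb was at 0.26 ± 0.08 (adjusted p = 0.0373) and Atp5b at 0.31 ± 0.08 (adjusted p = 0.0188). The 3 genes below 0 were Cox7a2l at -0.18 ± 0.08 (adjusted p = 0.135), Atp5l, and Atp5md. All 8 assembly factors had estimates above 0, but none passed, and their median was 0.14. With the replicate number as a block, 27 of the 83 genes were higher, when 17.8% of all genes were, and with a term for each genotype and replicate number, 34 were, when 22.3% of all genes were.

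Other genes of the pathway were read from lists by function. Among 19 electron carriers and enzymes that make ubiquinone, all tested, 3 rose and 0 fell in STAT3-/-PD-1-/- CD4+ T cells as compared with WT (7.21% of all genes were called higher and 5.65% lower), with a median log2 fold change of 0.54. They were Gpd2 (the mitochondrial glycerol-3-phosphate dehydrogenase, which feeds ubiquinone), at 51.6 and 49.4 CPM in WT and 124 and 106 CPM in STAT3-/-PD-1-/- (log2 fold change 1.19 ± 0.15, adjusted p = 0.00555), Coq7 (ubiquinone synthesis, 1.04 ± 0.24), and Etfb (electron transfer flavoprotein, 0.65 ± 0.17). In CD8+ T cells 5 rose and 0 fell against WT (9.01% of all genes were called higher and 8.21% lower), namely Coq2, Coq5, Coq6, Etfa, and Cyc1, with a median of 0.45. Against STAT3-/-, 3 rose and 0 fell in each subset (6.05% of all genes were called higher in CD4+ and 8.76% in CD8+ T cells, and 5.03% and 8.05% lower). They were Coq7, Gpd2, and Cyc1 in CD4+ and Pdss1, Cyc1, and Coq5 in CD8+ T cells. Cyc1 encodes cytochrome c1, a catalytic subunit of complex III that its name leaves out of the 83 genes. In CD4+ T cells Cyc1 was at 64.7 and 61.2 CPM in STAT3-/- and 88.3 and 102 CPM in STAT3-/-PD-1-/-. It was at 86.2 and 74.6 CPM in WT, 83.3 and 73.2 CPM in STAT3-/-, and 108 and 133 CPM in STAT3-/-PD-1-/- CD8+ T cells (0.58 ± 0.15 against WT, adjusted p = 0.0394, and 0.62 ± 0.15 against STAT3-/-, adjusted p = 0.0342).

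Among 10 tested carriers of the mitochondrial membranes and inhibitors of complex V, 2 rose and 0 fell against WT in each subset (7.21% of all genes were called higher in CD4+ and 9.01% in CD8+ T cells, and 5.65% and 8.21% lower). Chchd10 (a protein of the intermembrane space) was at 2.77 and 3.12 CPM in WT and 7.95 and 12.1 CPM in STAT3-/-PD-1-/- CD4+ T cells, and at 4.75 and 4.06 CPM and 15.9 and 23.2 CPM in CD8+ T cells, with log2 fold changes of 1.77 ± 0.29 and 2.15 ± 0.25. Vdac1 (the main channel of the outer membrane) had 0.60 ± 0.16 in CD4+ and 0.74 ± 0.13 in CD8+ T cells. Atpif1, which inhibits complex V when it runs in reverse, rose against STAT3-/- in CD8+ T cells (0.51 ± 0.13, adjusted p = 0.0411). Of 38 tested assembly factors of complexes I to V without the Ndufaf name, none passed against WT in CD4+ T cells and 2 rose in CD8+ T cells, Sdhaf1 (assembly of complex II, 0.81 ± 0.19) and Acad9 (assembly of complex I, 0.55 ± 0.14), a share below the 9.01% of all genes called higher there. Of 14 tested genes for mitochondrial transcription and biogenesis, 1 rose (Lrpprc, which stabilizes mitochondrial mRNA, 0.70 ± 0.12) and 1 fell (Esrra, a nuclear receptor that drives respiratory genes, -0.68 ± 0.19) against WT in CD8+ T cells, and 0 passed in CD4+ T cells. The shares of all genes were again 9.01% higher and 8.21% lower in CD8+ T cells. Against STAT3-/-, Pprc1 (a coactivator related to PGC-1) rose in both subsets, from 28.2 and 34.2 CPM to 53.9 and 60.1 CPM in CD4+ T cells (0.87 ± 0.20, the 1 call of 14) and from 39.7 and 36.5 CPM to 63.6 and 67.6 CPM in CD8+ T cells (0.78 ± 0.12, with Lrpprc the other call), when 6.05% and 8.76% of all genes were called higher. Nrf1, the factor named for its sites in respiratory gene promoters, lay at 78.3 to 97.0 CPM in all 12 libraries, and Ppargc1a was at or near 0 in all (0 to 0.12 CPM).

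Promoters were read from RefSeq on GRCm38.p6, from 250 bases before to 50 after the start of each gene, for 70 of the 83 genes that had an entry. They were searched on both strands for GCGCATGCG, the core of the site of NRF1, for AAGATGGCG, a form of the site of YY1 that lies at many translation starts, and for CCGGAAGT, a form of the site of ETS factors such as GABPA. GCGCATGCG was found in 12.9% of the 70 genes and 1.95% of all 27025 genes with a promoter entry, AAGATGGCG in 11.4% against 1.64%, and CCGGAAGT in 7.14% against 4.31%. Any of the 3 was found in 21 of the 70 genes, 30% against 7.48%. All 70 genes had at least 10 counts in every library, a limit not put on the 27025, so that the sets also differ in expression. The NRF1 letters read nearly the same on both strands, so that a match on each strand can overlap. Of the 12 genes called in any genotype comparison, Ndufaf4 and Uqcr11 held the NRF1 letters, Uqcr11 also held the ETS letters, and Atp5b, Ndufa12, Atp5g3, and Sdha held none of the 3. Ndufaf6 had no entry. The matches describe sequence only. They are shown for these 2 genes and, as examples from complexes IV and V, for Cox6a1 and Atp5k, with the matched letters in capitals, written on the strand of the gene (for Uqcr11 the letters match on the opposite strand).
Ndufaf4: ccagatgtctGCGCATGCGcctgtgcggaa
Uqcr11: atcgccttcaCGCATGCGCtatacgtctgc
Cox6a1: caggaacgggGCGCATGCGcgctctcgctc
Atp5k: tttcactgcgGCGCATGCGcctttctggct
The window of Ndufaf4 is chr4:24897960-24897989 on the plus strand, with the letters beginning 113 bases before the start. Those on the minus strand are chr10:80406807-80406836 for Uqcr11 (5 bases before), chr5:115349101-115349130 for Cox6a1 (162 bases before), and chr5:108434430-108434459 for Atp5k (50 bases before). In STAT3-/-PD-1-/- CD8+ T cells against STAT3-/-, the log2 fold changes of these genes were 0.72 (Ndufaf4), 0.50 (Uqcr11), 0.33 (Cox6a1, not called), and 0.08 (Atp5k, not called).

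Other measures moved with these results. The summed level of 4 genes of cycling cells, with Mki67 the most abundant, was 2707 and 2111 CPM in WT, 3151 and 2871 CPM in STAT3-/-, and 4276 and 3932 CPM in STAT3-/-PD-1-/- CD4+ T cells. In CD8+ T cells it was 3587 and 3082 CPM in WT, 4869 and 4546 CPM in STAT3-/-, and 4787 and 4320 CPM in STAT3-/-PD-1-/-. It was thus highest in STAT3-/-PD-1-/- in CD4+ T cells, and in CD8+ T cells it overlapped between STAT3-/- and STAT3-/-PD-1-/-. The single genes differed in that pair of CD8+ groups. Cdk1 (162 and 177 against 199 and 191 CPM) and Ccnb1 (38.1 and 35.8 against 46.6 and 40.4 CPM) were higher in both STAT3-/-PD-1-/- libraries. Top2a was lower in both (1637 and 1524 against 1480 and 1087 CPM), and Mki67 overlapped. The part of cell cycling in the results was not tested. Cd8a was at 597 and 598 CPM in the STAT3-/-PD-1-/- CD8+ libraries and at 1018 to 1349 CPM in the others. Cd4 was at 1322 and 1256 CPM in the STAT3-/-PD-1-/- CD4+ libraries and at 1669 to 1888 CPM in the other CD4+ libraries. These are sorted cells measured in bulk, so that more respiring cells in a pool and more transcript per cell cannot be told apart.

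Markers of other liver cells were low. The sum of 12 hepatocyte markers was 0.788 to 2.54 CPM, with Apoa2 the most abundant in most libraries and 4 to 8 markers at 0, and that of 5 red cell precursor markers was at most 0.562 CPM. The sum of 9 macrophage markers was 7.28 to 18.5 CPM in CD4+ libraries. In CD8+ libraries it was 27.6 to 38.4 CPM in WT and STAT3-/- and 17.8 and 19.3 CPM in STAT3-/-PD-1-/-. Cd68 was the most abundant of them in all 12 libraries and was at 27.1 to 29.1 CPM in the WT and STAT3-/- and at most 18.6 CPM in the STAT3-/-PD-1-/- CD8+ libraries. The other markers stood apart in replicate 2 of WT and STAT3-/- in both subsets, with Lyz2 at 0.979 to 1.21 CPM and Clec4f, a Kupffer cell marker, at 1.03 to 1.65 CPM, against at most 0.361 and 0.241 CPM in the other 8 libraries. Their part in the results was not tested. The sum of 4 B cell markers was 1.65 to 14.7 CPM, mostly Cd79b, and in CD8+ T cells it was lower in STAT3-/-PD-1-/- (6.04 and 5.30 CPM) than in the other libraries. The sum of 4 endothelial markers was 111 to 195 CPM, nearly all from Pecam1, which T cells also express. The highest of these sums was under the level of Atp5b alone, a comparison that sets no limit for genes of low level. Among called genes, Ndufaf6 at 2.72 to 7.25 CPM and Ndufaf2 at 6.50 to 14.9 CPM lay under the highest macrophage and endothelial sums. The part of other liver cells in the results was not tested.

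Transcript length also moved with part of the shift. The median exon length of the 83 genes was 868 bases, and 42 genes at or under it were set against the other 41. In CD4+ T cells, STAT3-/-PD-1-/- against WT, the median log2 fold change was 0.31 in the shorter and 0.27 in the longer genes. Among all genes tested it was 0.17 in the 627 of that length or shorter and -0.02 in the longer 11332. In STAT3-/- CD8+ T cells against WT the short genes of the whole table had a median of -0.13 and the longer ones 0.00, and the respiratory chain genes had -0.14 and -0.06. For STAT3-/-PD-1-/- against STAT3-/- in CD8+ T cells, the shorter and longer respiratory chain genes had 0.26 and 0.25, against 0.18 and -0.01 in all genes of those lengths. In CD4+ T cells the same comparison gave 0.26 and 0.25, against 0.17 and -0.02. For STAT3-/-PD-1-/- against WT in CD8+ T cells the order was reversed, at 0.10 in the shorter and 0.14 in the longer genes, against 0.05 and -0.0038. Replicates of a group also differed by length. Over all genes tested, the median of replicate 1 minus replicate 2 in STAT3-/- CD4+ T cells was 0.25 in the shorter and -0.05 in the longer genes. It was 0.15 and -0.01 in WT CD4+, -0.16 and 0.01 in WT CD8+, and -0.10 and -0.01 in STAT3-/- CD8+ T cells. In STAT3-/-PD-1-/- it was 0.02 and -0.02 in each subset. The part of transcript length in the results was not tested.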

How the data were processed

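Raw counts per gene, as deposited, were used; the authors made them with HTSeq-count and RefSeq annotation after alignment by STAR (mm10). The deposited RPKM values were not used, and RPKM given here were computed from TMM-scaled CPM and the exon length in the table. The labels also carry a protocol for an adipogenic cell line and another library kit than the methods, and neither was used. Groups came from the labels. The 83 genes, the lists, and the rule for named genes were chosen with earlier results of these data known. Genes named were those called in a genotype comparison (up to 8 per comparison and direction), the highest and lowest fold change of each complex, a fixed core of catalytic and isoform subunits, the highest and lowest level of each complex, and called genes of the pathway lists (up to 4). All other genes named, such as those under 10 counts and those with a promoter shown, were added after their values were seen.

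In R (version 4.3.3), edgeR (version 4.0.16) filtered genes by filterByExpr (minimum count 10, minimum total 15), scaled by TMM, and tested by its quasi-likelihood test with the 6 libraries of a subset fitted together (3 residual degrees of freedom). Adjusted p-values are Benjamini-Hochberg over all genes tested, at 0.05. Subsets were compared in a fit of all 12 libraries. DESeq2 (version 1.42.0), other scalings and filters, a replicate block, and leaving out each library were alternatives. Each library had 21676125 to 24551477 counts. Replicates differed by 28.7 to 81.2 times counting noise (chi-square per degree of freedom), so that spread between replicates limited precision. With 2 libraries a group, p-values measure only that spread, which may be technical in part. Counts of genes whose groups do not overlap are descriptions. Figures used matplotlib (version 3.10.9).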

Additional observations from a re-analysis of the deposited data

How the results depend on the processing

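No called gene changed sign under the alternatives run, but calls depended on them. With DESeq2, 4 genes instead of 2 were called in STAT3-/-PD-1-/- CD4+ T cells against WT and 5 instead of 3 against STAT3-/-, with all of the former calls kept and 8.80% and 8.67% of all genes called higher. In CD8+ T cells it called 7 higher and 2 lower against WT (10.9% and 11% of all genes). Against STAT3-/- it called 11 higher and 1 lower, Cox7a2l (11% and 12.1% of all genes). With all genes of at least 1 count tested, 1 gene was called in CD4+ T cells against WT (5.74% of all genes higher), and the same count of 1 was left when genes sharing windows were dropped, an alternative chosen after seeing the data, which removes Ndufa12 by construction. When only the 4 libraries compared were fitted, 5 instead of 9 genes were called in CD8+ T cells against STAT3-/- (8.08% of all genes higher).

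The titles carry 2 runs of numbers, one for each replicate number, and the labels do not say what they mark. Deviations of same-numbered samples within a subset correlated at 0.199 to 0.638 in CD4+ and 0.0579 to 0.658 in CD8+ T cells, 5 of 6 of them over 0.1. With a replicate block, 12 genes were called in CD4+ T cells against WT, 13 against STAT3-/-, and 27 between CD8+ and CD4+ T cells, in place of 2, 3, and 15, and it kept all of these. Calls over all genes rose as well, to 13.8%, 13.2%, and 17.8% higher. Of the other comparisons, the block changed the number of the 83 genes called by no more than 1.5 times, and added Ndufa1 to Cox7a2l as lower in CD8+ T cells against WT. Same-numbered CD4+ and CD8+ libraries of a genotype, from the same livers, correlated at 0.592, 0.587, and 0.654. With a replicate block within each genotype, added after seeing the data, 34 genes were called between the subsets (22.3% of all genes higher). In either interaction 0 were called, when at most 0.308% of all genes were called higher and 0.373% lower.

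Leaving out 1 library at a time lost 91 of 120 calls of the called genes. The lone library left in a group is then assumed to vary like the other groups. In CD4+ T cells STAT3-/- against WT had no call in any of these fits. The calls of STAT3-/-PD-1-/- against WT were lost without any 1 of the WT or STAT3-/-PD-1-/- libraries. Log2 fold changes ran from 0.49 to 0.70 for Atp5b and from 0.63 to 0.73 for Ndufa12. Against STAT3-/-, all calls were lost without STAT3-/- replicate 2 or either STAT3-/-PD-1-/- library. Ndufa12 lost its call in all 6 fits, and Atp5g3 kept it only without WT replicate 1. Log2 fold changes there ran from 0.51 to 0.71 (Atp5b), 0.65 to 0.78 (Ndufa12), and 0.51 to 0.78 (Atp5g3). In CD8+ T cells STAT3-/- against WT again had no call. The calls of STAT3-/-PD-1-/- against WT were all lost without WT replicate 2 or either STAT3-/-PD-1-/- library. Those of Ndufb8 (0.35 to 0.44) and Cox7a2l (-0.52 to -0.43) were lost in every fit. Against STAT3-/-, all calls were lost without STAT3-/- replicate 2 or either STAT3-/-PD-1-/- library. Those of Ndufb8 (0.40 to 0.52), Ndufc2 (0.35 to 0.59), and Uqcr11 (0.46 to 0.53) were lost in every fit. The medians ran from -0.17 to 0.16, 0.16 to 0.37, and 0.12 to 0.44 in CD4+ T cells, and from -0.19 to -0.064, 0.028 to 0.20, and 0.21 to 0.27 in CD8+ T cells. The median for STAT3-/- CD4+ T cells changed sign with which STAT3-/- library was left out, and that for STAT3-/-PD-1-/- CD8+ T cells against WT was 0.028 without WT replicate 1.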
